A study of Mus musculus with 16 samples.

Results

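The Nkx genes encode homeodomain transcription factors, and 9 of them were followed here by name through 8 maps of H3K27me3, out of 21631 protein-coding genes of the autosomes and X. Members were set by symbol and not by a measured value: Nkx2-1, Nkx2-2, Nkx2-3, Nkx2-5, Nkx2-6, Nkx3-2, Nkx6-1, Nkx6-2 and Nkx6-3. A gene was called marked in a library when a deposited peak overlapped its RefSeq body, extended by 2 kb to each side, by at least 1 base. By this rule the 9 genes held 41 of 106385 peaks, and 6 of the 9 were marked in at least 1 library, where 21.4% of all genes were.

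The dnTCF4 cells were CCN6KOT cells, from a spindle metaplastic mouse breast tumour that lacks CCN6, carrying lentiviral DNTCF4 (a dominant negative form of a beta-catenin partner), with 4 H3K27me3 libraries. The control cells were CCN6KOT cells with the control lentivirus (PPGS in the sample titles), also with 4 libraries, and both groups were grown in DMEM/F12 with serum and selected with puromycin. The series' design text calls the cells without DNTCF4 parental, while the growth protocol names a control lentivirus, and the promoter of the construct is not stated there. Both groups lack CCN6 and carry the same cell line name. Libraries of a group are numbered 1 to 4 and no label ties them to separate cultures. Any p-value here measures only how these libraries scatter, which may be technical.

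H3K27me3 is the histone mark that the Polycomb complex with EZH2 places on genes held silent, and developmental transcription factors are among its best known targets. Nkx proteins bind DNA through their homeodomain and specify organs in the embryo: NK2-type members act in heart, thyroid, lung, gut and ventral neural tube, Nkx3-2 acts in the axial skeleton, and NK6-type members act in neural tube, pancreas and stomach. The series set out to learn how EZH2 shapes chromatin in such tumours, and dnTCF4 was used to interfere with beta-catenin signalling. Peak lists carry no read counts, so depth is unknown and a gene without a peak is a gene where none was called.

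The lists differed widely in length, from 191 peaks (dnTCF4 2) to 54070 (control 3), and a gene could be marked only as often as its library called peaks. The share of all genes marked was 13.7%, 0.254%, 5.13% and 2.41% in dnTCF4 1 to 4, and 0.675%, 1.06%, 20.1% and 12.5% in control 1 to 4. The 95% Wilson interval of these shares, which covers counting error only, was 13.2% to 14.2% in dnTCF4 1 and 19.6% to 20.6% in control 3. Of 8 epithelial markers 5 were marked in some library, with Epcam marked in all 8 libraries and Krt8, Krt18 and Cldn4 in none. None of 8 mesenchymal markers was marked. Over all genes 21.4% were marked in some library, and the marker lists were not compared by a test. Of the other cell types a tumour can hold, Cd3e and Ptprc were marked among 5 immune markers, and Kdr and Tek among 4 endothelial markers. A peak shows the mark and not RNA, so it does not check the cell type, nor the loss of Ccn6, which was itself marked in 1 library.

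The promoters of the 3 most often marked members and of the NK6-type members with the most CpG are printed here. Peaks lay around the RefSeq start sites used for the Nkx genes and almost never on them. Each runs 5′ to 3′ from 250 bases before to 50 after the RefSeq start, and capitals mark every CG dinucleotide, the sequence context that DNA methylation acts on and that marks CpG islands. They are credited to RefSeq, build GRCm38.p6 (mm10). They come from chr17:26841516-26841815 (minus strand) for Nkx2-5, chr19:43612075-43612374 (plus strand) for Nkx2-3, chr2:147186353-147186652 (minus strand) for Nkx2-2, chr7:139582748-139583047 (minus strand) for Nkx6-2 and chr5:101664662-101664961 (minus strand) for Nkx6-1.
Nkx2-5: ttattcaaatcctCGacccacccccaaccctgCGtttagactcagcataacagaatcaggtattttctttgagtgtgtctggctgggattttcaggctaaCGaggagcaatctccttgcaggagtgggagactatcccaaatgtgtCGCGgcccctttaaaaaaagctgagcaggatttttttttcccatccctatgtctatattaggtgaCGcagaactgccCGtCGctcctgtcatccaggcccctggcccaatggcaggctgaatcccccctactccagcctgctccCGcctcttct
Nkx2-3: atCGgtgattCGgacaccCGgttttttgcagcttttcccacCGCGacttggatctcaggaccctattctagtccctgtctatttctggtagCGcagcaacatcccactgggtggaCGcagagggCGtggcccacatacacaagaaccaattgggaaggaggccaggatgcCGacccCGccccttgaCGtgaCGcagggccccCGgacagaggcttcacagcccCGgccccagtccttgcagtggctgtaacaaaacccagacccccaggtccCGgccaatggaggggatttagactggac
Nkx2-2: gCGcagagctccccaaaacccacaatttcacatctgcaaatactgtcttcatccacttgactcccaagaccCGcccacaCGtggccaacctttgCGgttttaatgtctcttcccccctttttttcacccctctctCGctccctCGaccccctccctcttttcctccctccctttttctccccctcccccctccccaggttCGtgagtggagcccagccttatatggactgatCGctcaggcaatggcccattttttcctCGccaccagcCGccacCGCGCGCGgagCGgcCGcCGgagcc
Nkx6-2: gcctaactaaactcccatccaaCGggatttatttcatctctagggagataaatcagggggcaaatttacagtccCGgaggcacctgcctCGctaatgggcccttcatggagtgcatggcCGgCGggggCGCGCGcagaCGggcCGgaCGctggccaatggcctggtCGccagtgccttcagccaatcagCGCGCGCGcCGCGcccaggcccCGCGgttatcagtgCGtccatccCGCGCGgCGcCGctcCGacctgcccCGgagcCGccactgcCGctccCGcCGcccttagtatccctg
Nkx6-1: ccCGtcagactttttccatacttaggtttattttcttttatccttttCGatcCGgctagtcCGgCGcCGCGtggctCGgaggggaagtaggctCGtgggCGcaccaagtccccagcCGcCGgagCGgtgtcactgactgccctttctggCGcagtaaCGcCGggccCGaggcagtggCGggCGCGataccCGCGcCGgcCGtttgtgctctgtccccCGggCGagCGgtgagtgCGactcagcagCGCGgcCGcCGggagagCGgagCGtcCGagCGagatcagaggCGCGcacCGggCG

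These promoters run from CpG-poor to CpG-dense. They hold 9 CG dinucleotides at Nkx2-5, 15 at Nkx2-3, 17 at Nkx2-2, 32 at Nkx6-2 and 40 at Nkx6-1, against a median of 13 over 21045 promoters of tested genes, and Nkx2-1 and Nkx3-2 hold 12 and 25. The table used matched 7 of the 9 members. A peak touched the promoter of Nkx2-5 in control 4, and no promoter of the other 6 matched members was touched in any library. The edge of the promoter decided this. The control 4 peak ran from 26841792 to 26842002 and a dnTCF4 1 peak from 26841820 to 26842043, just outside the promoter, which reaches 26841815. Of all 21045 promoters, 1.95% were touched in some library. That share was 4.33% of promoters with at most 4 CG, 2.76% with 5 to 13, 0.340% with 14 to 25 and 0.104% with 26 or more. By this share over any library, touched promoters were thus rarer where CG was denser. The order of the classes with at most 4 and with 5 to 13 CG differed by library. They were touched to 1.25% and 1.39% in dnTCF4 1, and to 3.82% and 2.29% in control 3. The part of base composition in the results at the Nkx genes was not tested. The TCF/LEF motif CTTTGA, searched on both strands, occurred at Nkx2-5, at position -184 from the start, and at no other matched member, where 14.4% of all promoters hold it. The NK2 motif CAAGTG occurred at Nkx2-2 alone among them, on the reverse strand at position -197, where 13.04% of all promoters hold it. These matches describe letters in a window and are not binding sites.

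In both groups the marked Nkx genes were mainly of the NK2 type, as are most of the 9 members, and Nkx2-5, Nkx2-3 and Nkx2-2 carried the most. Nkx2-1, of the same type, was marked in no library. Members marked numbered 4, 0, 3 and 1 of 9 in dnTCF4 1 to 4, and 0, 0, 6 and 3 of 9 in control 1 to 4. The libraries with no marked member were the 3 shortest lists. Set beside the shares of all genes, 44.4% of members were marked where 13.7% of genes were (dnTCF4 1), 33.3% where 5.13% were (dnTCF4 3), 66.7% where 20.1% were (control 3) and 33.3% where 12.5% were (control 4). The members were chosen with results of these data known, so these counts are given with no test. Apart from Nkx2-2 the members are short, and of the 7742 genes with a body of up to 10 kb fewer were marked, namely 8.37% in dnTCF4 1, 2.88% in dnTCF4 3, 13.5% in control 3 and 7.50% in control 4. At least 2 libraries of each group marked Nkx2-2, Nkx2-3 and Nkx2-5, which 5.02% of all genes reached.

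**Figure D1:**
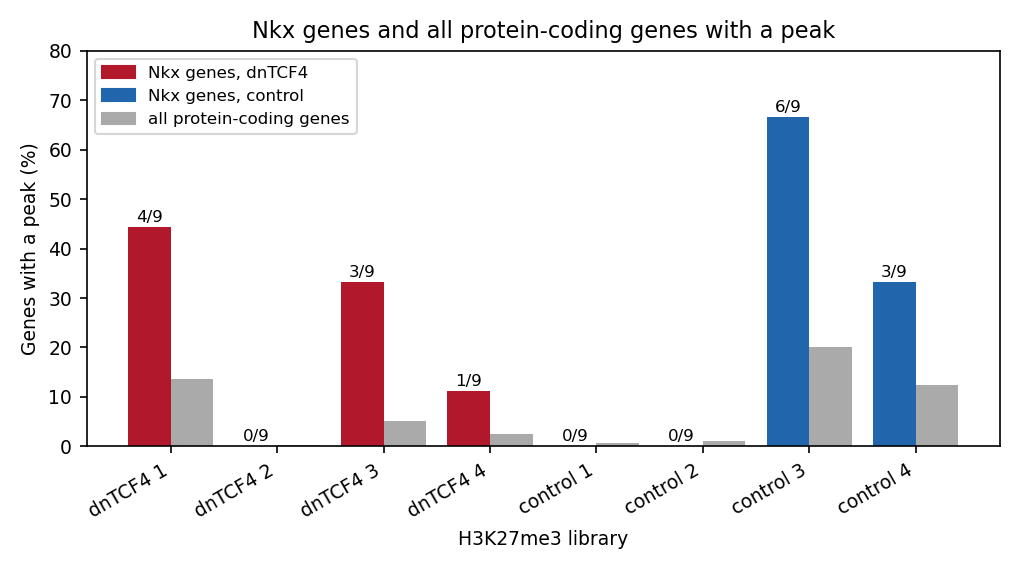
Percent of genes with a peak (y axis) in each H3K27me3 library (x axis), for the 9 Nkx genes (coloured bars, with their count above) and all 21631 protein-coding genes (grey bars). Nkx genes were marked in the 5 libraries with the longest lists and in none of the other 3.

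**Figure D2:**
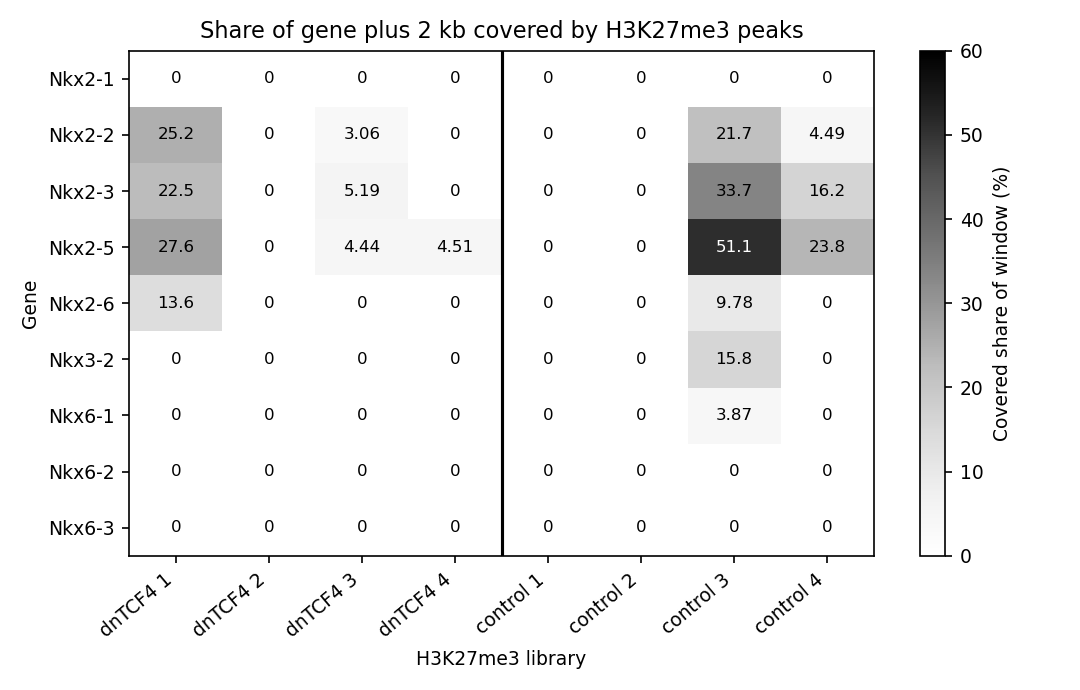
Percent of each gene's window (body plus 2 kb to each side) covered by peaks, by gene (rows) and library (columns), with dnTCF4 libraries left of the line and control libraries right of it. Nkx2-5 reached 51.1% in control 3 and 27.6% in dnTCF4 1, and the rows of Nkx2-1, Nkx6-2 and Nkx6-3 are at 0 throughout.

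Nkx2-5, a regulator of heart muscle identity, was marked in the most libraries of the 9 genes, 3 dnTCF4 and 2 control libraries. At least 5 libraries marked 2.31% of all genes. Peaks covered 27.6%, 0%, 4.44% and 4.51% of its 10.3 kb window in dnTCF4 1 to 4, and 0%, 0%, 51.1% and 23.8% in control 1 to 4. Control 3 and dnTCF4 1 were the highest of their groups, both groups held libraries at 0, and the groups overlapped. The mean covered share was 9.13 ± 12.5% in dnTCF4 and 18.7 ± 24.3% in control libraries (SD, n = 4 each), a difference of -9.57 percentage points that was smaller than either SD (exact permutation p = 0.714, adjusted p = 1). Without control 3 the difference turned to 1.21 percentage points.

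The peaks at Nkx2-5 lay mainly upstream of the start site used (chromosome 17, 26841565, minus strand). The annotated body reaches past this start site, to 26844988. The widest ran from position -7816 to -3421 relative to the start site in dnTCF4 1 (4396 bp, at the 99.2 percentile of width in its list) and from -7816 to -1158 in control 3 (6659 bp, at the 99.4 percentile). Both lay across the upstream end of the annotated body, in dnTCF4 1 with 3 bases inside it, and both ended at the same base, 26849381. Control 4 had a peak of 2371 bp inside that stretch, and dnTCF4 4 a peak of 466 bp. No base was shared by all 5 libraries. Separate stretches were covered in 4 libraries each, 207 bases from 26843768 to 26843974, inside the annotated gene, in dnTCF4 1, dnTCF4 3, control 3 and control 4, and 466 bases from 26846010 to 26846475, beyond it, in dnTCF4 1, dnTCF4 4, control 3 and control 4. Peaks of both groups thus covered these stretches, although dnTCF4 3 and dnTCF4 4 had 1 peak each and shared none. Nearest to the start site were peaks of 224 bp in dnTCF4 1 and 211 bp in control 4, which ended at positions -255 and -227.

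**Figure D3:**
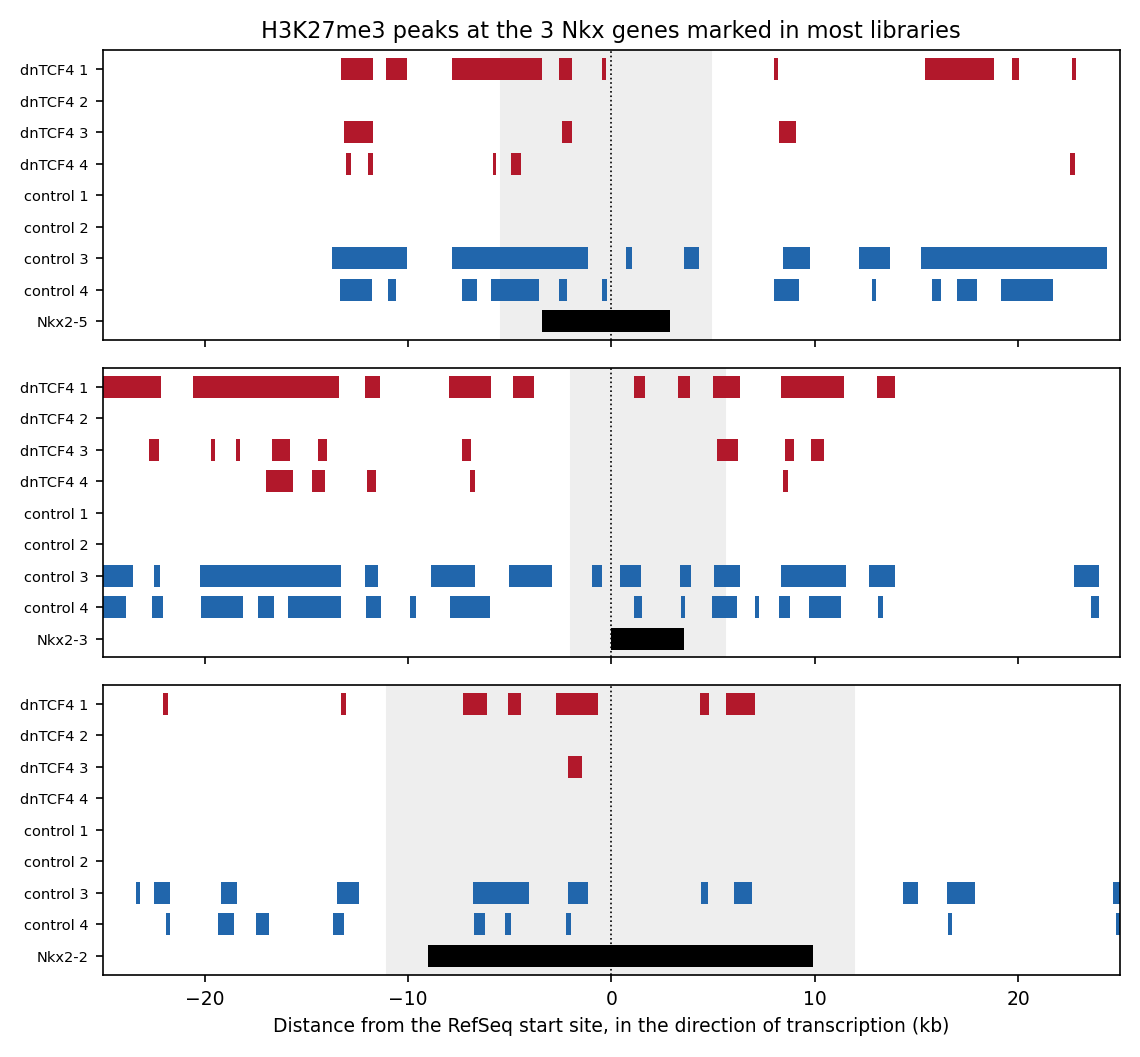
Peaks (coloured bars, dnTCF4 red, control blue) of each library within 25 kb of the RefSeq start site of Nkx2-5, Nkx2-3 and Nkx2-2, with distance in kb along transcription on the x axis, the annotated gene in black and the window in grey. Peaks recur at like distances in dnTCF4 1, dnTCF4 3, control 3 and control 4, and none lies across the start site used. The annotated bodies of Nkx2-5 and Nkx2-2 reach upstream of it, and peaks of dnTCF4 1 and control 3 cross the upstream end of Nkx2-5.

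Nkx2-3, which acts in the development of the gut wall and the spleen, was marked in 2 libraries of each group. Peaks covered 22.5%, 0%, 5.19% and 0% of its 7.57 kb window in dnTCF4 1 to 4, and 0%, 0%, 33.7% and 16.2% in control 1 to 4. The same libraries were high as at Nkx2-5, and the groups overlapped. The means were 6.92 ± 10.7% in dnTCF4 and 12.5 ± 16.1% in control libraries (SD, n = 4 each; difference -5.53 percentage points, exact permutation p = 0.714, adjusted p = 1), and without control 3 the difference was 1.53 percentage points. A stretch of 393 bases, from 43617500 to the window's edge at 43617892 on chromosome 19, was covered in dnTCF4 1, dnTCF4 3, control 3 and control 4. It lies 5175 to 5567 bases past the start site, downstream of Nkx2-3 and inside the non-coding gene Gm34922.

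Around Nkx2-3 peaks covered more of the flanks than of the gene, as they did on average over all genes. The 20 kb upstream were covered to 52.1%, 0%, 10.7% and 13.3% in dnTCF4 1 to 4, and to 0%, 0%, 60.4% and 41.0% in control 1 to 4. The gene body itself was covered to 23.1% in dnTCF4 1, 34.0% in control 3 and 14.3% in control 4, and not at all in the other libraries. All 5 libraries with coverage within 20 kb had a higher share over the flanks than over the body, and dnTCF4 4, in which the gene was not marked, still had peaks on both sides. Taking both flanks together, Nkx2-3 was covered to 40.025% in dnTCF4 1 and 47.4% in control 3. Marked genes with a body of up to 10 kb averaged 10.3% over the flanks and 10.4% over the body in dnTCF4 1, and 16.4% and 14.9% in control 3. All genes averaged 1.38% over the flanks and 0.846% over the body in dnTCF4 1, and 3.29% and 2.12% in control 3. These values are a description, and no difference between Nkx2-3 and other genes was tested. The 20 kb flanks were chosen after the data were seen. The nearest coding genes, Got1 (87.7 kb away) and Slc25a28 (47.9 kb), were marked in no library.

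Nkx2-2, which acts in the ventral neural tube and in the endocrine pancreas, was marked in 2 libraries of each group. Peaks covered 25.2%, 0%, 3.06% and 0% of its 23.0 kb window in dnTCF4 1 to 4, and 0%, 0%, 21.7% and 4.49% in control 1 to 4. Here dnTCF4 1 was the highest of all 8 libraries. The means lay close together, at 7.05 ± 12.2% in dnTCF4 and 6.54 ± 10.3% in control libraries (SD, n = 4 each; difference 0.515 percentage points, exact permutation p = 1, adjusted p = 1). The direction did not hold, as it turned to -5.52 percentage points without dnTCF4 1, to -1.66 without control 1 or without control 2, and to -0.168 without control 4.

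At Nkx2-2 the annotated body was covered more than the mean of its 20 kb flanks in 3 of 4 libraries with coverage, for instance to 30.5% against 7.96% in dnTCF4 1. In control 3 the body, at 26.2%, was above that mean of 21.6% but below the downstream flank, at 29.1%. This body is 18.95 kb long and reaches past the start site printed above. A stretch of 156 bases on chromosome 2, from 147188373 to 147188528, was covered in dnTCF4 1, dnTCF4 3, control 3 and control 4. It lies at positions -2126 to -1971 from that start site and within the overlapping non-coding gene Nkx2-2os, and part of it lies in 6430503K07Rik, so the peak cannot be assigned to a single gene. Its coding neighbour Pax1, a somite regulator 166 kb away, was marked in 3 dnTCF4 and 2 control libraries, and Nkx2-4, 91.0 kb to the other side, in none.

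Nkx2-6, expressed in the pharyngeal arches of the embryo, was marked in dnTCF4 1 and control 3. Peaks covered 13.6%, 0%, 0% and 0% of its 7.74 kb window in dnTCF4 1 to 4, and 0%, 0%, 9.78% and 0% in control 1 to 4. These are the longest lists of their groups, and all other libraries were at 0. The means were 3.41 ± 6.82% in dnTCF4 and 2.45 ± 4.89% in control libraries (SD, n = 4 each; difference 0.966 percentage points, exact permutation p = 1, adjusted p = 1), a difference that rests on 1 library per group and turned to -2.45 without dnTCF4 1. The 304 bases from 69170833 to 69171136 on chromosome 14, just outside the gene and inside the non-coding gene 1700092C10Rik, were covered in both libraries.

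Nkx2-1, which acts in thyroid, lung and ventral forebrain, was marked in no library. Its nearest peaks lay 157 kb away in dnTCF4 1 and 64.0 kb away in control 3, and its family neighbour Nkx2-9, 74.5 kb away, was marked in control 3. Chromosome 12, where it lies, carried little of the mark: peaks covered 0.0997% of its annotated length in dnTCF4 1 and 0.399% in control 3. On chromosome 2, with Nkx2-2, those shares were 1.92% and 3.95%, on chromosome 17, with Nkx2-5, 1.17% and 3.17%, and on chromosome 19, with Nkx2-3, 1.31% and 4.15%. Chromosome 14, with Nkx2-6, was low as well, at 0.115% and 0.549%. The part of the chromosome in these differences was not tested.

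Nkx3-2, a regulator of cartilage in the axial skeleton, had peaks in its window in control 3, where they covered 15.8%, and the other 7 libraries were at 0. The means were 0% in dnTCF4 and 3.95 ± 7.90% in control libraries (n = 4 each; difference -3.95 percentage points, exact permutation p = 1, adjusted p = 1), and the difference was 0 without control 3. The window's edge decided this count. In dnTCF4 1 a peak ended 2.78 kb from the gene and in control 4 another ended 2.85 kb from it, both just outside the 2 kb used, and with 5 kb to each side Nkx3-2 was marked in 3 libraries. Its body held no peak in any library. The 20 kb downstream, in contrast, were covered to 32.1% in dnTCF4 1 and 2.53% in dnTCF4 3, and to 36.2% in control 3 and 23.7% in control 4.

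**Figure D4:**
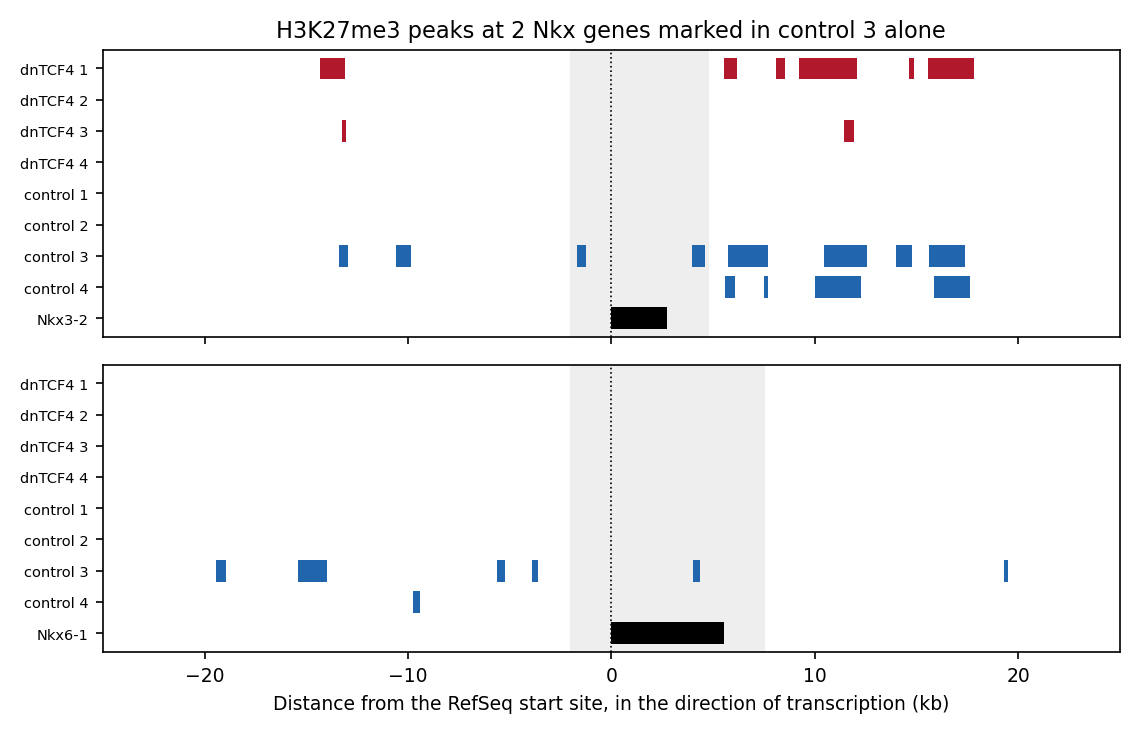
Peaks (coloured bars, dnTCF4 red, control blue) within 25 kb of the start sites of Nkx3-2 and Nkx6-1, with the annotated gene in black, the window in grey and distance in kb along transcription on the x axis. Peaks of dnTCF4 1, control 3 and control 4 flank Nkx3-2 downstream of its window, and the body of Nkx6-1 holds 1 peak, in control 3.

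The NK6-type genes carried least. Nkx6-1, needed for insulin-producing beta cells and for motor neuron progenitors, had 1 peak of 369 bp in control 3, which covered 3.87% of its 9.53 kb window, and no peak in the other 7 libraries. The means were 0% in dnTCF4 and 0.968 ± 1.94% in control libraries (n = 4 each; difference -0.968 percentage points, exact permutation p = 1, adjusted p = 1). Nkx6-2, which acts in the neural tube and in myelinating glia, and Nkx6-3, which acts in the stomach lining, were marked in no library. The nearest peak to Nkx6-2 lay 63.0 kb away in both dnTCF4 1 and dnTCF4 3, and 15.1 and 62.9 kb away in control 3 and control 4. The nearest peak to Nkx6-3 lay 115 kb away in both dnTCF4 1 and control 3.

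The chromosomes that hold the NK6-type genes differed in how much of the mark they carried. Chromosome 5, with Nkx6-1 and Nkx3-2, was covered to 1.06% in dnTCF4 1 and 2.98% in control 3, near the values of chromosome 17. Chromosome 8, with Nkx6-3, was covered to 0.431% and 2.70%, and chromosome 7, with Nkx6-2, to 0.189% and 0.720%. On chromosome 5, 19.7% of genes were marked in dnTCF4 1 and 23.6% in control 3. The part of the chromosome in the low count at the NK6-type genes was not tested.

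Of the 38 peaks at the 5 marked members with a placed start site, 20 lay upstream of it, 18 downstream and 0 across it. Only 6 came within 1 kb, and the nearest stopped 227 bases short. Of all 41 member peaks, 24 lay wholly inside a gene body and 12 wholly outside. A peak outside counted only if it reached within 2 kb of the body, and all peaks counted at Nkx2-2 lay inside its 18.95 kb body. The split thus depends on the window and on gene length, and does not show a preference for gene bodies.

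The member peaks ranged widely in width, and their median fold enrichment was above that of the whole list in 4 of the 5 libraries that held any. The deposited fold enrichment, the authors' own value over the background of the peak caller, ran from 2.93 to 4.58, and widths from 192 to 6659 bp with a median of 592 bp. In dnTCF4 1 the median member peak was 856 bp wide (12 peaks) where the whole list had a median of 485 bp, and the median fold was 3.82 against 3.495. In dnTCF4 3 the medians were 703 bp (3 peaks) against 400 bp, and 3.97 against 4.05. The single member peak of dnTCF4 4 was 466 bp wide against 307 bp, with a fold of 4.58 against 4.48. In control 3 the medians were 569 bp (16 peaks) against 595 bp, and 3.13 against 3.01. In control 4 they were 364 bp (9 peaks) against 471 bp, and 3.59 against 3.39. The median percentile of fold within the list was 82.8 in dnTCF4 1, 37.9 in dnTCF4 3, 60.01 in dnTCF4 4, 68.9 in control 3 and 78.6 in control 4. Folds and widths compare only within a list, and no difference between groups was tested. The highest −log10 q of a member peak was 2.63, in control 4 at Nkx2-5, and the lowest was 1.11, where the lowest over all deposited peaks was 1.01. Only dnTCF4 1, dnTCF4 3, control 3 and control 4 hold at least 4000 peaks. Among the 4000 most significant of each, Nkx2-2, Nkx2-3 and Nkx2-5 were each marked in 3 libraries. The share of all genes marked at that cut was not computed, so this count has no background to be read against.

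**Figure D5:**
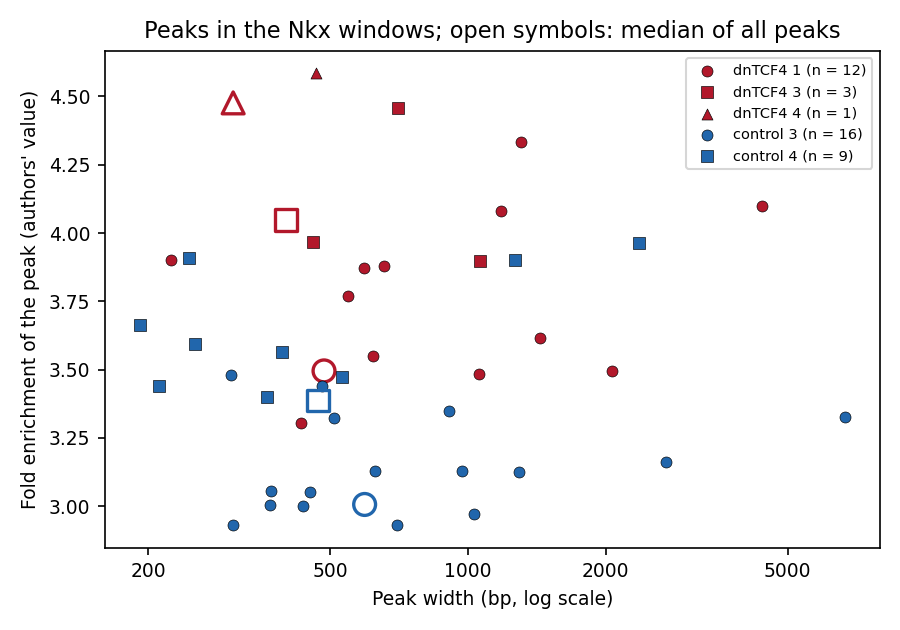
Width in bp (x axis, log scale) and the authors' fold enrichment (y axis) of the 41 peaks in the Nkx windows, with colour and shape by library and a large open symbol at the median of all peaks of that library. Values compare only within a library, and in dnTCF4 1 most member peaks lie right of the open circle.

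No difference between dnTCF4 and control libraries at a member exceeded the spread of libraries. Fisher's exact test on the number of libraries marked gave every member p = 1 and adjusted p = 1 over 21631 genes (Benjamini-Hochberg). Called genes made up 0% of all genes by that test, with 0 genes at an unadjusted p under 0.05 and a lowest p of 0.143. The two-sided exact permutation test of covered share over the 70 assignments of libraries to groups called 0 of 21631 genes after adjustment (0%), and 1 gene (0.00462%), no member, reached an unadjusted p under 0.05, at 0.0286, the smallest this design gives. At that floor no gene can pass the adjustment unless many do, so these tests do not show that the members were alike in the groups. Mean covered share was higher in dnTCF4 libraries at 2 members (2.39% of all genes), lower at 4 (19% of all genes) and 0 in both groups at 3. Over all genes with a peak in any library, 88.8% had a lower mean in dnTCF4 libraries, with control 3 the longest list. With the 4000 most significant peaks of each library that holds as many (dnTCF4 1, dnTCF4 3, control 3 and control 4), the difference was 2.82 percentage points at Nkx2-5 and 0.839 at Nkx2-3, the other way round.

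By the Euclidean distance of covered shares over the 8 libraries, the genes most like Nkx2-5 were Lrrc17, Dpysl5 and Pdx1, at 4.46, 5.19 and 5.87 percentage points. Pdx1, a pancreatic regulator, had means of 8.87% in dnTCF4 and 18.98% in control libraries. For Nkx2-3 they were Scn8a, Mov10l1 and Atp1a4 (3.54, 4.79 and 4.82), for Nkx2-2 the agouti gene a, Cabp1 and Fgf8 (4.94, 5.67 and 6.34), and for Nkx2-6 Defb25, Barx1 and Cst8 (3.05, 3.06 and 3.40). These distances describe 8 libraries whose lists differ in length, and nothing was tested.

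Genes of the lists set beside the Nkx genes were marked to varying degrees, and 0 genes of any list here passed either test between the groups. Of 24 other NK-linked homeobox genes, 20 were marked in at least 1 library, where 21.4% of all genes were. They numbered 11, 0, 1 and 0 in dnTCF4 1 to 4, and 0, 0, 18 and 7 in control 1 to 4. Covered share was lower in dnTCF4 libraries at 17 of the 20 and higher at 3, a share near the 88.8% of all genes with a peak that were lower. The median difference over the 24 was -1.76 percentage points, where the median over all genes, most of which have no peak, was 0. Tlx1, a homeobox regulator of the spleen, had peaks in 2 dnTCF4 and 2 control libraries, with a covered share of 7.39 ± 11.02% in dnTCF4 and 18.1 ± 22.7% in control libraries (SD, n = 4 each). Hhex, Hmx1 and Dbx2 were marked in 1 dnTCF4 and 2 control libraries, and Barhl2, Hlx, Noto and Tlx3 in none.

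The heart list held 8 marked genes of 16, all of them marked in control 3, where 20.1% of all genes were. For this list and those below, the share of all genes marked in at least 1 library is 21.4%. Gata4, Gata5, Tbx1 and Tbx5 were marked in 1 dnTCF4 and 2 control libraries each, while Gata6, Hand1, Hand2 and Isl1 were marked in none. Gata4 and Tbx5 are partners of Nkx2-5 in cardiac gene activation. Their covered shares were lower than its own, with means of 0.475% and 0.980% in dnTCF4, and 4.21% and 2.60% in control libraries. Each share is a percent of the gene's own window, and windows differ in length, so these shares do not compare the bases covered.

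Of 17 ventral neural tube and hedgehog genes 12 were marked, with Pax7, a dorsal neural tube and muscle regulator, in 3 dnTCF4 and 4 control libraries and Gli2 and Sox10 in 2 of each and Dbx2 in 1 and 2, while Gli1, Gli3, Ptch1 and Irx3 were marked in none. Of 14 pancreatic endocrine genes 8 were marked, with Pdx1 in 2 libraries of each group and Sst in 1 dnTCF4 and 2 control libraries. Gcg, Ins2, Isl1 and Mafa had no peak. Among 12 thyroid and lung genes, the field of the unmarked Nkx2-1, 6 were marked, including Foxe1, Hhex, Tg and Tshr in 1 dnTCF4 and 2 control libraries, while Foxa1, Pax8, Scgb1a1 and Sftpa1 had no peak.

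Of 11 somite and cartilage genes, the field of Nkx3-2, 6 were marked. Pax1 and Meox1 were marked in 3 dnTCF4 and 2 control libraries, Col2a1, the main cartilage collagen, in 2 dnTCF4 and 3 control libraries, and Sox6 in 1 and 2. Gdf5, Matn1, Meox2 and Sox5 had no peak. Among genes for Polycomb subunits, which write or read the mark itself, Phc2 was marked in 2 dnTCF4 and 2 control libraries, and Aebp2, Bmi1, Cbx2, Cbx7 and Ezh2 had no peak.

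Most coding neighbours of the members had no peak. Those of Nkx2-5 (Bnip1 and Kifc5b, 46.1 and 72.1 kb away) and of Nkx3-2 (Rab28 and Bod1l, 53.3 and 23.3 kb away) were marked in no library, and neither were Mbip beside Nkx2-1, Stc1 beside Nkx2-6, Gpat3 beside Nkx6-1, Pwwp2b beside Nkx6-2 and Gpat4 beside Nkx6-3. Next to unmarked or rarely marked members, Gm42134 (58.4 kb from Nkx6-1) and Cfap46 (18.1 kb from Nkx6-2) were each marked in 2 dnTCF4 and 2 control libraries, and Ank1 (2.77 kb from Nkx6-3) in control 3. Nkx6-2 also overlaps the end of the coding gene Inpp5a.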

How the data were processed

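H3K27me3 was measured by ChIPmentation, in which a transposase adds adapters to immunoprecipitated chromatin, in 4 dnTCF4 and 4 control libraries. The 8 IgG libraries were not analysed here. The submitters' processing notes name MACS2 2.1.2, Bowtie2 2.3.4.1, bedtools 2.28.0, SAMtools 1.2, Picard 2.20.2, cutadapt and Trim Galore, with mm10 as build. Options and the control used by the peak caller were not found in these sources. The deposited peak lists were called per library, as their peak names show. The deposited columns are a score (10 times the −log10 q, truncated, in 106378 of 106385 peaks), a fold enrichment ratio, a −log10 p-value and a −log10 q-value, all the authors' own values per peak.

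From these lists, marked genes and covered shares were computed for RefSeq genes of GRCm38.p6 with Python 3.11.15, NumPy 2.4.6, pandas 2.3.3 and SciPy 1.17.1. Start sites and strands came from the RefSeq promoter table, and exons were not used here. Groups were compared with Fisher's exact test and a two-sided exact permutation test over all genes, with Benjamini-Hochberg adjustment, both tested on simulated data. The lists of deposited peaks were used whole, and alternatives changed the window, peak threshold, overlap, list length, scaling and libraries. Library numbers were not used as pairs. Named beside the members are their coding neighbours, the 3 genes of nearest pattern, and from each list up to 4 genes with a peak in at least 3 libraries and up to 4 with none. Naming Ezh2, Ccn6 and Tek and making the chromosome, flank and CpG comparisons were choices made after values were seen. The members and lists were chosen with earlier results of these data known. A neighbour of Nkx2-6 and some list genes are not reported here.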

Additional observations from a re-analysis of the deposited data

Results flagged for a closer look

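In 6 of 18 groups of 4 libraries, the highest covered share of a member stood apart from the other 3 libraries by Dixon's gap test. Chance flags about 1 in 20 groups, but that share is no yardstick here: 8 of the 18 groups were at 0 throughout and could not be picked out, and a group with 1 library above 0 always is. In dnTCF4 libraries the groups picked out were Nkx2-2 (25.2%), Nkx2-5 (27.6%) and Nkx2-6 (13.6%), each time in dnTCF4 1, and in control libraries Nkx2-6 (9.78%), Nkx3-2 (15.8%) and Nkx6-1 (3.87%), each time in control 3. In 4 of the 6 the other 3 libraries were all at 0. Each falls on the longest peak list of its group, and the part of list length was not tested.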

How the results depend on the processing

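All differences here are dnTCF4 minus control. No gene passed the adjusted threshold in any alternative, and over the 302 alternative values of the 18 member results the lowest unadjusted p was 0.3 and the lowest adjusted p 0.689. Directions of the covered share difference were less stable, and the cause was not tested. It turned to -3.03 percentage points at Nkx2-6 with the body alone, and to -1.26 at Nkx2-2 with 5 kb to each side. With a −log10 q of at least 2 it was 0.303 at Nkx2-5 and -0.982 at Nkx2-6, and with the 4000 most significant peaks 0.839 at Nkx2-3 and 2.82 at Nkx2-5. With the 5 libraries of at least 1000 peaks, chosen after seeing the data, it was -3.67 at Nkx2-2 and -0.342 at Nkx2-6. Leaving out each library in turn gave ranges of -5.52 to 5.56 at Nkx2-2, -10.7 to 1.53 at Nkx2-3, -15.8 to 1.21 at Nkx2-5 and -2.45 to 3.41 at Nkx2-6. The difference in the fraction of libraries marking Nkx2-5 (main value 0.25) was -0.25 both with the promoter window and with at least 500 bases covered. With the promoter window 0 members were marked in dnTCF4 and 1 in control libraries, against 4 and 6. The values with the promoter window rest on its edge at Nkx2-5, where a peak of dnTCF4 1 lay just outside. With the 4000 most significant peaks 3 were marked in control libraries, and without 1 library in turn 3 to 4 in dnTCF4 and 3 to 6 in control libraries. Among genes of up to 10 kb, the share marked was 8.37%, 0.0775%, 2.88% and 1.07% in dnTCF4 1 to 4, and 0.375%, 0.413%, 13.5% and 7.50% in control 1 to 4. Same-numbered libraries did not all deviate together over genes (r of -0.820, 0.802, -0.334 and -0.471 for numbers 1 to 4). Some with different numbers did, with r of 0.798 for dnTCF4 2 and control 1 and 0.760 for dnTCF4 1 and control 3. Over lists of such unlike length these correlations cannot decide whether the numbers are pairs, and no label tells. With the replicate block 0 genes passed by either test, whose lowest p was then 0.25 and 0.125. Peak lists carry no depth, which limits every statement on a missing peak.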
